A study of Mus musculus with 36 samples.

Results

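Retro-orbital tumors, masses taken from behind the eye, were compared to kidney tumors of the same mouse line. All of these mice carried the genotype given as Sglt2-Cre; ASPSCR1-TFE3 LSL/+, in which the Sglt2 promoter, active in the proximal tubule of the kidney, drives the Cre recombinase that switches on the ASPSCR1-TFE3 gene fusion. Libraries were assigned to the groups by their tissue label. They were 4 retro-orbital tumor libraries, 1 each from mice 2, 3, 5 and 6, and 11 kidney tumor libraries from mice 1 to 6, together 15 of the 36 libraries of the series. Mouse 5 gave 1 kidney tumor library and the other mice gave 2 each, which were summed, so that 4 retro-orbital tumors were compared to 6 kidney tumor mice. Each mouse with a retro-orbital tumor also had a kidney tumor. Kidneys of 3 control mice with Sglt2-Cre and no fusion (6 libraries), and non-transformed kidney of mice 1, 3, 4 and 5, serve as a background for the levels and were not part of the test. The labels used here give no age and do not say whether a retro-orbital tumor arose in the orbit or spread there. Each library is a piece of fixed tissue that holds tumor and host cells, so that fewer cells of a type and less RNA per cell cannot be told apart.

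The fusion joins a part of ASPSCR1 to a part of TFE3, a transcription factor of the MiT/TFE family that drives lysosomal genes. It occurs in translocation renal cell carcinoma and in alveolar soft part sarcoma. The identity of kidney tubule cells rests on transcription factors such as Pax2 and Pax8. Hox genes record the position of a cell along the body axis: the kidney forms in a Hox-expressing part of the trunk, whereas the cranial neural crest, which gives rise to the connective tissue of the orbit and the front of the face, forms without Hox expression and uses factors such as Alx1, Alx4, Prrx1 and Twist1. Levels below are CPM, counts brought to a common library total with the trimmed mean of M-values, and a fold change is the level in retro-orbital tumors relative to kidney tumors. A gene was called, and is said to have risen or fallen, when its edgeR quasi-likelihood p-value, adjusted over all genes tested by the Benjamini-Hochberg method, was under 0.05. Coordinates are on build GRCm38.

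Retro-orbital libraries held 94062687 to 119833557 counts and kidney tumor libraries 95205356 to 119317777. The sums that were tested were deeper for kidney tumors, with TMM-scaled totals of 98894265 to 124485216 in retro-orbital tumors, 103208346 in the kidney tumor of mouse 5 and 191017458 to 217174664 in the 5 other kidney tumors, so a gene with no count was held to a lower limit in the latter. The fusion partners did not separate the sites. Tfe3 was at 28.1, 32.4, 26.7 and 28.7 CPM in the retro-orbital tumors of mice 2, 3, 5 and 6 and at 17.8 to 34.4 CPM in kidney tumors (log2 fold change 0.09, SE 0.19, adjusted edgeR p 0.779). Aspscr1 was at 24.5 to 34.9 and 21 to 41.6 CPM (log2 fold change 0.03, adjusted edgeR p 0.941). Reads of the fusion transgene and of the mouse genes cannot be told apart in these counts. The first principal component, with 43.33% of the variance, placed the retro-orbital tumors of mice 2, 3 and 6 between 130.59 and 151.9, the one of mouse 5 at 24.34, and the kidney tumors between -118.04 and -29.2.

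Both tumors of mouse 5 stood apart from the rest of their groups. Its retro-orbital tumor held renal transcripts: the 22 proximal tubule markers summed to 2596 CPM there and to 983 to 1007 CPM in the 3 other retro-orbital tumors, and the 39 Hox genes to 23.4 CPM compared to 5.91 to 6.80 CPM. It also held transcripts of the Harderian and lacrimal glands, which lie in the orbit and whose list of 13 genes summed to 1870 CPM compared to 0.988 to 1.21 CPM. Slc7a13, a transporter of the male proximal tubule, was at 791 CPM in the kidney tumor of mouse 5. It was at 895 CPM in the non-transformed kidney and 0.359 CPM in the retro-orbital tumor of that mouse. Y-linked transcripts marked mice 1 and 5 as male and the others as female. They were at 9.36 CPM in the kidney tumor of mouse 2 and at 1.42 to 1.62 CPM in the other female kidney tumors. Xist, the RNA that silences an X chromosome in female cells, was at 3.75 CPM in the retro-orbital and 5.83 CPM in the kidney tumor of mouse 5. The non-transformed kidney of mouse 5 had 0.108 CPM of Xist. The kidney tumor of mouse 5 held transcripts otherwise high in retro-orbital tumors, such as Alx1 at 50.9 CPM compared to 0.385 to 1.77 CPM in the other kidney tumors. The part of these transcripts in the results was not tested, and values without both tumors of mouse 5 are given below where the printed fold change of a gene moved by over 1.5 times.

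Of 22136 genes tested, 3919 were called, which is 17.7%. They were 1828 risen genes (8.26%) and 2091 fallen genes (9.45%), and the median log2 fold change over all genes tested was -0.09. In 3720 of the called genes, all 4 mice with both tumors moved the same way. Every retro-orbital tumor was above every kidney tumor mouse for 1731 genes (7.82%) and below for 1878 genes (8.48%). With mouse as a block, 2707 genes were called (12.2%), of which 2191 were among the 3919 and none of these in the opposite direction. Without mouse 5, 1800 genes were higher (8.13%) and 1715 lower (7.75%), and 2907 genes were called in both fits. The split between rises and falls turned with the scaling, to 2205 higher and 1608 lower with upper quartile factors. In all, 35 lists of 711 genes were examined, of which 656 passed the filter on low counts. A gene that passed only through the group in which it was high had to differ, so the counts within lists are descriptions.

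**Figure D1:**
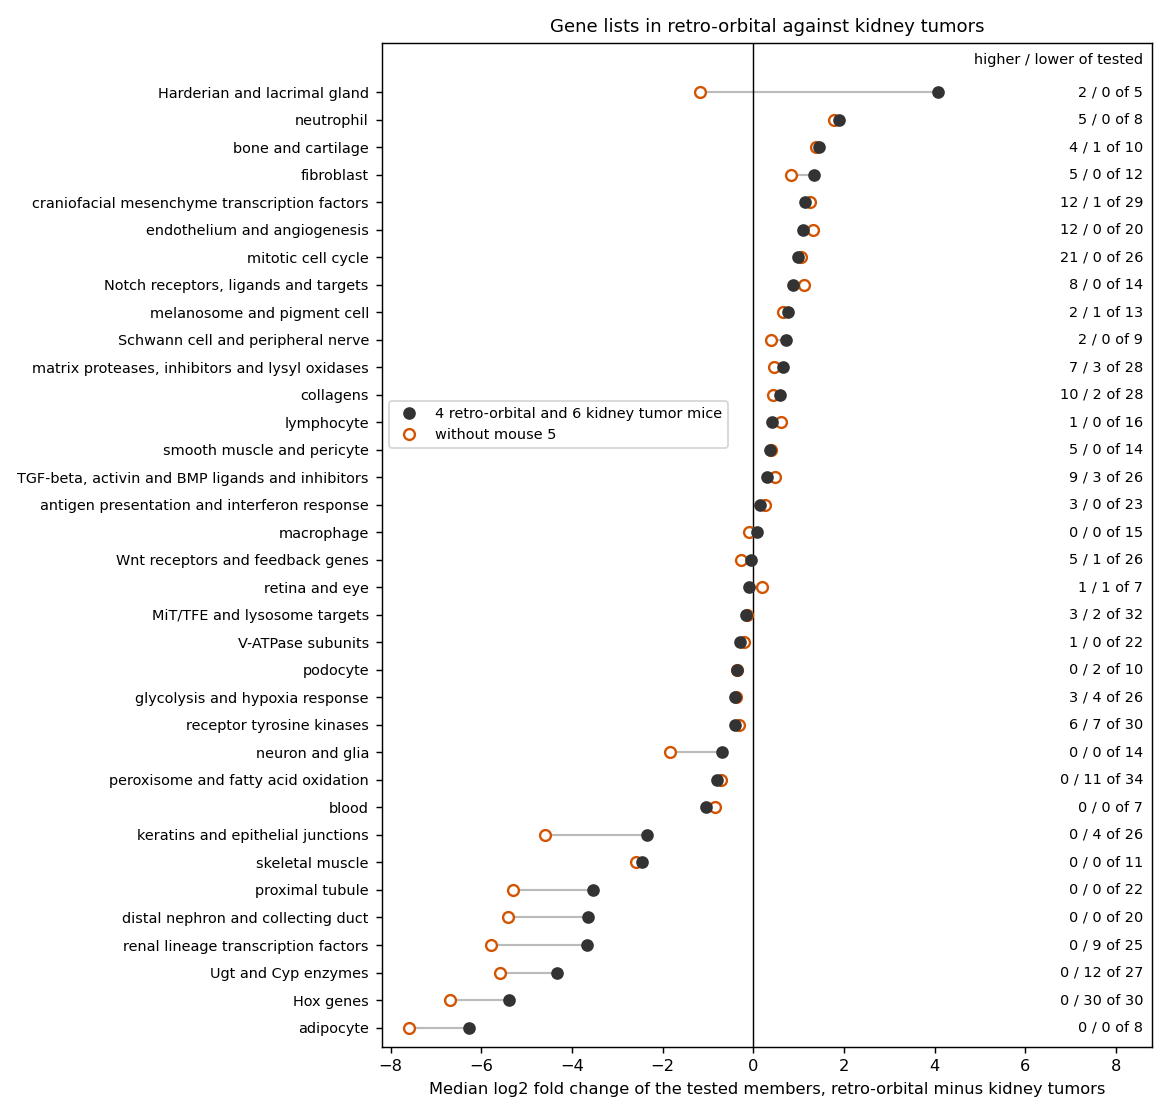
Median log2 fold change of the tested members of each of 35 gene lists, retro-orbital minus kidney tumors, with all mice (filled) and without mouse 5 (open, members at 0 in the remaining retro-orbital tumors set at their bound); the numbers give members called higher, called lower and tested. Hox genes (median -5.38), Ugt and Cyp enzymes (-4.32) and renal transcription factors (-3.67) lie far to the left. The median of 8 adipocyte genes, of which 0 were called, is -6.26 with all mice and -3.65 without mouse 2, whose kidney tumor was high in them, and mitotic (0.98), endothelial (1.1) and craniofacial (1.13) genes lie to the right, against a median of -0.09 over all genes.

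Renal transcription factors were among the genes that fell. Of 25 factors tested, 9 fell and 0 rose (median log2 fold change -3.67), and 14 fell without mouse 5 (median -5.79). Pax2, a founding factor of the nephron lineage, was at 0.142, 0.25, 1.76 and 0.265 CPM in the tumors of mice 2, 3, 5 and 6, while kidney tumors had 24.9 to 43.2 CPM (median 35.6). It fell by 5.85 in log2 (SE 0.80, adjusted edgeR p 0.0019). Emx2 (chromosome 19, 59458372 to 59465357), which is needed for the kidney to form, was at 0.172, 0.0833, 3.04 and 0.0803 CPM compared to 25.4 to 62.9 CPM (median 44.4) and fell by 5.74 (SE 1.2, adjusted edgeR p 0.0103). The groups were far apart for both genes, and mouse 5 was the highest of the retro-orbital tumors each time. Nr1h4, the bile acid receptor FXR (chromosome 10, 89454234 to 89533585), was at 0.576, 0.333, 7.79 and 0.868 CPM compared to 29.6 to 88.5 CPM (median 59.2) and fell by 4.67 (SE 0.96, adjusted edgeR p 0.00947). The log2 fold change of Pax8 was -5.35 with mouse 5 and -7.09 without it (adjusted edgeR p 3.58e-05), and those of Pax2, Emx2 and Nr1h4 without mouse 5 were -7.18, -8.71 and -6.56. The control kidneys had 39.8 to 46.3 CPM of Pax2 and 31.8 to 40.2 CPM of Emx2, within or near the range of the kidney tumors. All 25 factors summed to 49.5 to 151 CPM in retro-orbital and 271 to 1062 CPM in kidney tumors. In brain tumors of this mouse line, from mice 1, 2 and 4, the sums were 211, 70.3 and 62.1 CPM.

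Other factors of the proximal and distal tubule followed with wider spread. Lhx1, Tfcp2l1 and Hnf4g fell by 4.79, 3.67 and 2.81 in log2 (adjusted edgeR p 0.0306, 0.045 and 0.0453). Each of these 3 calls was lost when mouse 2, 3 or 6 was left out, at adjusted p of 0.0642 to 0.135. Lhx1 was also lost without mouse 4 (0.0541), and Hnf4g and Tfcp2l1 were lost without mouse 1 or 4 (0.0639 to 0.0802). Leaving out mouse 5 moved the log2 fold change of Lhx1 to -8.17 and that of Tfcp2l1 to -5.79. That of Emx2 was lost without mouse 2 (0.0506), and that of Nr1h4 without mouse 6 (0.051). Hnf4a, the factor of proximal tubule maturation, was at 0.768, 0.475, 14.9 and 0.803 CPM in the retro-orbital tumors of mice 2, 3, 5 and 6, and at 10.8 to 185 CPM (median 52.6) in kidney tumors. Mouse 5 overlapped with the kidney tumors, and the log2 fold change of -4.18 was not called (adjusted edgeR p 0.0546). It was called with mouse as a block (0.0163) and without mouse 5 (0.00617), at -6.27. The block called 13 of the 25 factors.

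**Figure D2:**
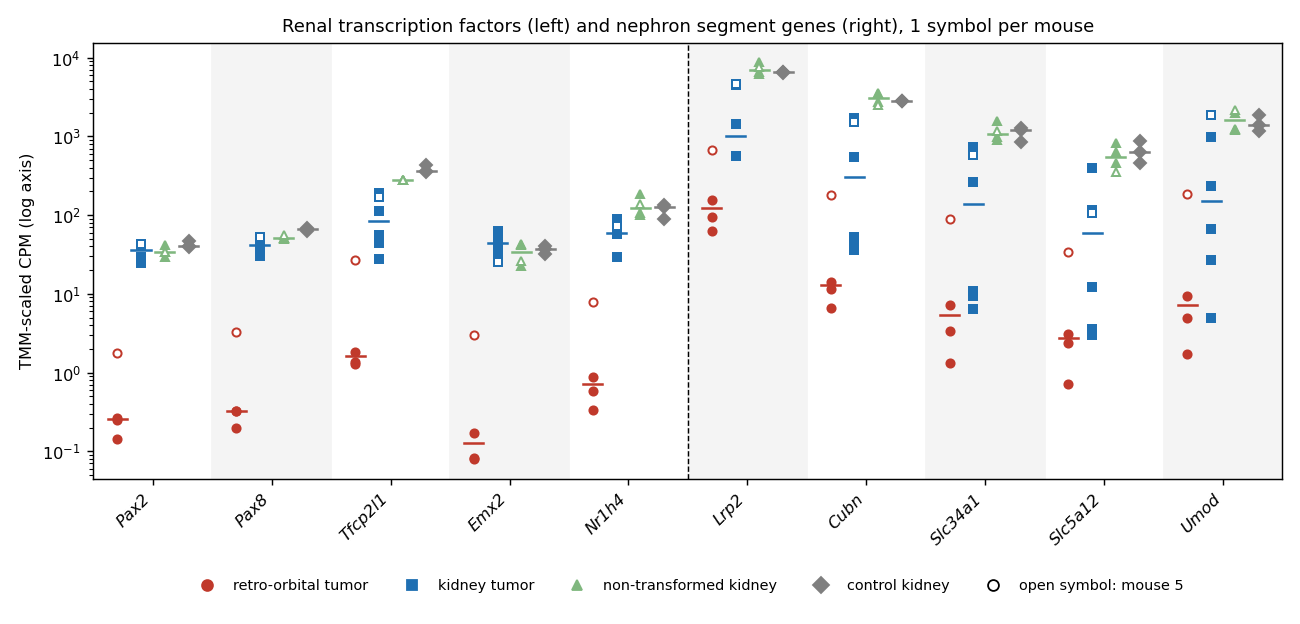
TMM-scaled CPM (log axis) of renal transcription factors (left) and nephron segment genes (right), 1 symbol per mouse in retro-orbital tumors, kidney tumors, non-transformed kidney and control kidney; bars are medians and open symbols mark mouse 5. The 5 factors shown do not overlap between retro-orbital and kidney tumors, with Pax2 at most 1.76 CPM in the former and at least 24.9 CPM in the latter, the groups nearly touch for Tfcp2l1 (27.1 and 27.5 CPM), and segment genes such as Slc34a1 spread from 6.40 to 737 CPM within kidney tumors.

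The Hox genes were the one list of the 35 in which every member tested was called. Of 39 Hox genes, 30 passed the filter on low counts. All 30 that passed fell, with a median of -5.38 (-6.69 without mouse 5, with 2 genes at 0 set at their bound of 3 counts), and 27 of them fell with mouse as a block. The fall was found in all 4 clusters: the medians were -5.71 over 10 genes of Hoxa on chromosome 6, -5.49 over 8 genes of Hoxb on chromosome 11, -5.28 over 7 genes of Hoxc on chromosome 15 and -4.06 over 5 genes of Hoxd on chromosome 2. Of the 39 genes, 8 had no count in any retro-orbital tumor and 2 had none in any kidney tumor. Together they summed to 2.5, 4.58 and 7.05 CPM in the brain tumors of mice 1, 2 and 4. The retro-orbital tumors had 5.91 to 23.4 CPM, so a low Hox level was not particular to the orbit.

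Hoxa10 (chromosome 6, 52231197 to 52240854), a posterior gene, was at 0.121, 0.0666, 1.68 and 0.225 CPM in the retro-orbital tumors of mice 2, 3, 5 and 6, and at 15.6 to 50.1 CPM (median 32.8) in kidney tumors. It fell by 5.99 (SE 1.01, adjusted edgeR p 0.00438). The anterior Hoxa3 was at 0.202, 0.183, 2.28 and 0.177 CPM compared to 29.9 to 46.1 CPM (median 36.1) and fell by 5.72 (adjusted edgeR p 0.00338). Anterior and posterior genes of the cluster were thus both near 0 in the tumors of mice 2, 3 and 6 and slightly higher in mouse 5. Hoxc10 (chromosome 15, 102966796 to 102971893) was at 0, 0.05, 0.952 and 0.0562 CPM compared to 9.50 to 37.9 CPM (median 26.0) and fell by 6.57 (SE 1.33, adjusted edgeR p 0.0089). Hoxb9 fell by 6.36 (adjusted edgeR p 0.00709), from 9.14 to 18.8 CPM in kidney tumors to at most 0.557 CPM. Hoxd8 (chromosome 2, 74704615 to 74707933) kept a low level, at 3.86, 3.42, 5.42 and 3.04 CPM compared to 14.3 to 40.7 CPM (median 22.1), and fell by 2.73 (SE 0.36, adjusted edgeR p 0.00175). Unlike Hoxa10 and Hoxc10, Hoxd8 was at 3.04 CPM or more in each of the 4 tumors. Leaving out mouse 5 moved the log2 fold changes of Hoxa10, Hoxa3, Hoxc10 and Hoxb9 to -7.98, -7.60, -9.49 and -8.75.

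Levels in control kidney lay on either side of those in kidney tumors. Control kidneys had 63.1 to 72.3 CPM of Hoxd8, above every kidney tumor. They had 16.5 to 18.6 CPM of Hoxa10, 8.68 to 12.6 CPM of Hoxc10 and 0.057 to 0.298 CPM of Hoxc11, while kidney tumors had 0.213 to 8.72 CPM (median 3.57) of Hoxc11. That gene had 0, 0, 0.162 and 0 CPM in the retro-orbital tumors of mice 2, 3, 5 and 6, and its log2 fold change of -6.57 (adjusted edgeR p 0.0253) was not called with mouse as a block (0.102). The falls of Hoxa11 (-6.33, adjusted p 0.00894) and Hoxd4 (-1.73, adjusted p 0.0306) were also lost with the block (0.0526 and 0.164). Leaving out mouse 2 ended the calls of Hoxa11 (0.051), Hoxc11 (0.0997) and Hoxd4 (0.101), and leaving out mouse 6 did so at 0.0526, 0.0926 and 0.0603. Without mouse 3, Hoxc11 (0.0995) and Hoxd4 (0.13) were lost, as was Hoxd4 without mouse 4 (0.0619). The log2 fold change of Hoxa11 was -8.72 without mouse 5 and -5.72 without mouse 3, and that of Hoxc11 was -5.77 without mouse 2 and -5.93 without mouse 3. Without mouse 5, Hoxc11 had no count in the retro-orbital tumors.

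**Figure D3:**
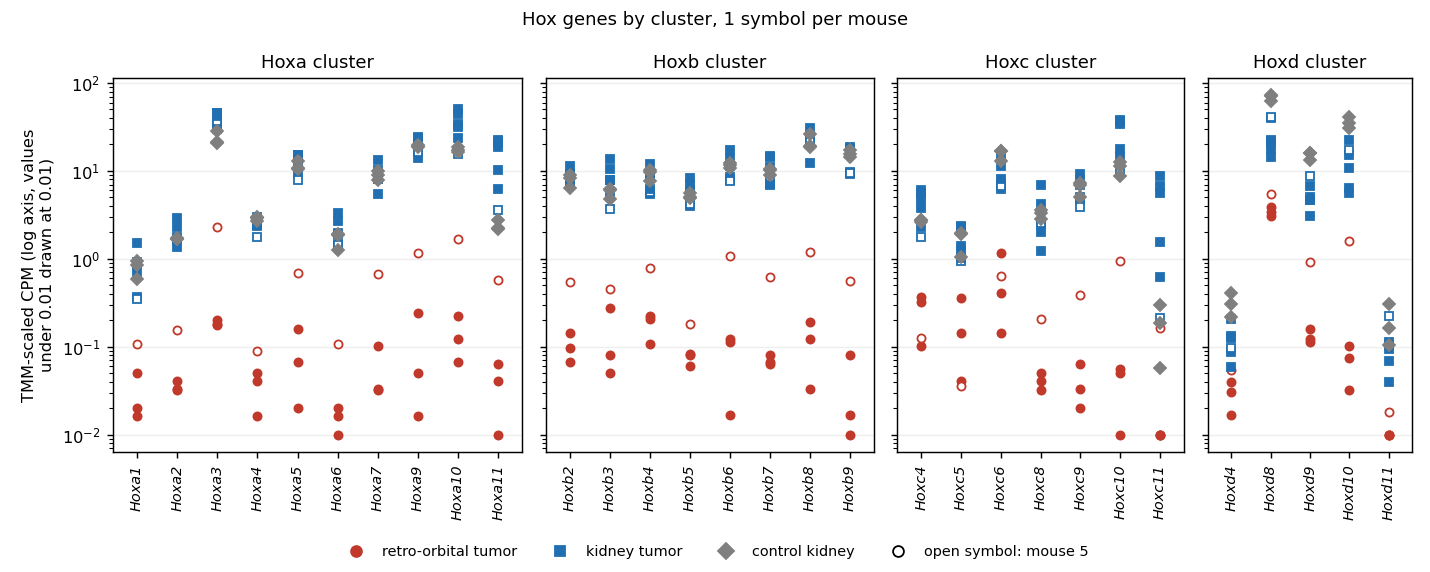
TMM-scaled CPM (log axis, values under 0.01 drawn at 0.01) of the Hox genes in the order of each of the 4 clusters, 1 symbol per mouse in retro-orbital, kidney tumor and control kidney; open symbols mark mouse 5. Retro-orbital tumors lie below kidney tumors at every tested gene, with Hoxd8 at 3.04 to 5.42 CPM in retro-orbital tumors.

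Genes of the nephron segments spread more widely among kidney tumors than the factors did. No gene was called of 22 proximal tubule markers (median -3.53) or of 20 markers of the distal nephron and collecting duct (median -3.65). Slc34a1, the phosphate transporter of the proximal tubule, was at 3.33, 1.32, 89.6 and 7.28 CPM in retro-orbital tumors of mice 2, 3, 5 and 6. In kidney tumors it was at 262, 9.44, 10.8, 737, 588 and 6.40 CPM in mice 1 to 6, and in controls at 859 to 1280 CPM. The kidney tumor of mouse 6 lay below the retro-orbital tumor of the same mouse. Those of mice 2 and 3 lay above every retro-orbital tumor except that of mouse 5. The log2 fold change of -3.41 was not called (adjusted edgeR p 0.204). Umod, the uromodulin of the thick ascending limb, was at 5.00, 1.72, 185 and 9.35 CPM compared to 4.99 to 1859 CPM (median 152), with an adjusted edgeR p of 0.224. Lrp2 and Cubn, the endocytic receptors megalin and cubilin, had log2 fold changes of -3.06 and -3.62 that were not called (adjusted edgeR p 0.0574 and 0.13) and were called with mouse as a block (0.0153 and 0.019), as was Slc5a12 (0.175 and 0.0325). The block called 6 proximal tubule markers and 1 distal marker, all lower. Without mouse 5, 5 proximal tubule markers were called lower. Among them was Lrp2 (-3.82, adjusted edgeR p 0.0257), while Cubn (-5.43), Slc34a1 (-5.63) and Slc5a12 (-5.63), as well as Umod (-5.56), were not called without mouse 5.

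The kidney tumors of mice 2, 3 and 6 were low in segment genes and still held Hox and Pax8 transcripts. Their summed proximal tubule level was between 1447 and 2422 CPM, compared to 5455, 14429 and 17555 CPM in the kidney tumors of mice 1, 4 and 5 and 22070 to 23375 CPM in control kidneys. Their Hox genes summed to 345, 373 and 357 CPM, above the 253 to 307 CPM of the 3 other kidney tumor mice, and their Pax8 level was 29.8 to 43.5 CPM compared to 37.2 to 52.5 CPM in those 3. The 25 renal transcription factors together were lower in these mice, as the segment genes were, with sums of 271, 398 and 359 CPM in mice 2, 3 and 6 compared to 630, 916 and 1062 CPM in mice 1, 4 and 5. Retro-orbital tumors of the same 3 mice had 983 to 1007 CPM of proximal tubule transcripts and at most 6.80 CPM of Hox transcripts.

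**Figure D4:**
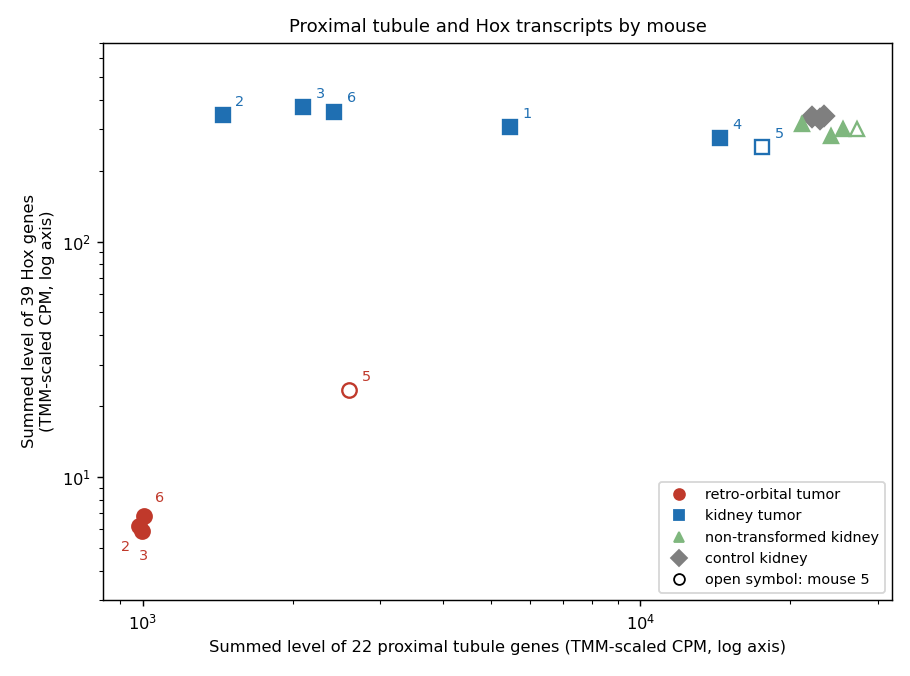
Summed level of 22 proximal tubule genes (x axis) and of 39 Hox genes (y axis), both as TMM-scaled CPM on log axes, 1 symbol per mouse and tissue; open symbols mark mouse 5. Kidney tumors spread along the x axis from 1447 to 17555 CPM while staying at 253 to 373 CPM on the y axis, and the retro-orbital tumors lie at 5.91 to 23.4 CPM.

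Of 26 keratin and epithelial junction genes, 4 fell and 0 rose (median -2.34), which is 15.4% called compared to 17.7% of all genes tested. Without mouse 5, 9 fell, and with mouse as a block 10 were lower and 1 higher. Cdh6 (chromosome 15, 13028701 to 13173675), a cadherin of the nephron progenitor and proximal tubule, was at 6.33, 3.99, 5.69 and 3.38 CPM compared to 13.5 to 48.4 CPM (median 28.8) and fell by 2.66 (SE 0.39, adjusted edgeR p 0.00249). This gene did not single out mouse 5. The kidney-specific cadherin Cdh16 was at 1.77, 0.583, 34.3 and 2.39 CPM compared to 126 to 381 CPM (median 233) and fell by 4.65 (adjusted edgeR p 0.0221), and the tight junction gene Cldn2 fell by 4.49 (adjusted edgeR p 0.0274). Both calls were lost without mouse 2, 3 or 6 (0.0625 to 0.0893). The epithelial cadherin Cdh1 had 2.40, 1.13, 31.0 and 2.13 CPM in the retro-orbital tumors of mice 2, 3, 5 and 6 and 3.10 to 154 CPM in kidney tumors, and was not called (log2 fold change -2.82, adjusted edgeR p 0.199, 0.0361 with the block). Epcam, a surface protein of epithelia, was not called either (-2.73, adjusted edgeR p 0.244). With mouse 5 left out, Cdh16 and Cldn2 had log2 fold changes of -7.06 and -6.49, and Cdh1 and Epcam, at -4.58 and -4.86, were again not called.

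Of the 12 largest falls, 4 were those of Ugt genes. The Ugt genes encode UDP-glucuronosyltransferases, which attach glucuronic acid to bilirubin, steroids and drugs, and the Cyp genes encode oxidizing enzymes. Of 27 such genes tested, 12 fell and 0 rose, with a median of -4.32 (-5.59 without mouse 5), and 6 fell with mouse as a block. Members of the Ugt1a family share exons and those of the Ugt2b family are similar in sequence, so the level of a single member is uncertain.

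Ugt1a10 was at 0.789, 0.25, 2.75 and 0.53 CPM in the retro-orbital tumors of mice 2, 3, 5 and 6 and at 23.3 to 159 CPM (median 71.9) in kidney tumors, and fell by 6.31 (SE 0.94, adjusted edgeR p 0.00273). Ugt1a9 was at 2.52, 0.308, 13.1 and 0.611 CPM compared to 22.3 to 658 CPM (median 268) and fell by 6.15 (adjusted edgeR p 0.0227). Ugt1a1, the enzyme that conjugates bilirubin, was at 0.384, 0.175, 1.79 and 0.305 CPM compared to 1.25 to 19.6 CPM (median 14.2) and fell by 4.22 (adjusted edgeR p 0.0117). The level in mouse 5 was the highest retro-orbital value of each, and for Ugt1a1 it was above the lowest kidney tumor. With mouse as a block, Ugt1a9 (0.0835) and Ugt1a1 (0.0962) were not called. Ugt2b35 (chromosome 5, 87000860 to 87013275) was at 1.12, 0.283, 11.7 and 0.474 CPM compared to 24.2 to 814 CPM (median 341), and control kidneys had 0.0263 to 0.114 CPM. Its log2 fold change of -6.78 (adjusted edgeR p 0.0168), and that of Ugt2b34 (-6.12, adjusted p 0.017), were no longer called with the block (0.0748 and 0.0742). Kidney tumors were thus far above control kidney for Ugt2b35, and the retro-orbital tumors lay between them. Ugt2b37 and Ugt1a8 fell by 6.79 each (adjusted edgeR p 0.00817 and 0.012). Leaving out mouse 3 or mouse 6 ended the calls of Ugt1a1, Ugt1a8, Ugt1a9, Ugt2b34 and Ugt2b35 (0.0528 to 0.0895), and leaving out mouse 2 those of Ugt1a1, Ugt1a9, Ugt2b34 and Ugt2b35 (0.0663 to 0.104). Leaving out mouse 5 moved the log2 fold changes of Ugt1a10, Ugt1a9, Ugt1a1 and Ugt1a8 to -7.44, -8.18, -5.59 and -7.64, and those of Ugt2b35 and Ugt2b34 to -9.41 and -8.98. Smaller falls were found for Ugt1a8 without mouse 2 (-6.01), Ugt1a9 without mouse 3 (-5.34), Ugt2b35 without mouse 3 or 6 (-6.16 and -6.03) and Ugt2b34 without mouse 3 or 6 (-5.51 each).

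Among the 12 largest falls, 5 genes were neither Ugt nor Hox genes. Hsd3b6 (chromosome 3, 98805504 to 98814443), an enzyme of steroid synthesis, was at 0.404, 0.142, 0.817 and 0.37 CPM in the retro-orbital tumors of mice 2, 3, 5 and 6, compared to 9.56 to 729 CPM (median 41.2) in kidney tumors and 0.582 to 0.86 CPM in control kidney. Retro-orbital tumors and control kidneys therefore shared a low level, and the log2 fold change of -9.18 (SE 1.89, adjusted edgeR p 0.00986) was lost without mouse 2 (0.052) or mouse 6 (0.0534). Aoc1, a diamine oxidase (chromosome 6, 48872896 to 48909188), was at 0.303, 0.2, 2.30 and 0.161 CPM compared to 16.1 to 129 CPM (median 73.3) and 1.70 to 3.58 CPM in controls, and fell by 6.71 (SE 1.11, adjusted edgeR p 0.00402). Pklr, the pyruvate kinase of liver and kidney, was at 0.283, 0.2, 3.59 and 0.37 CPM compared to 25.1 to 256 CPM (median 117) and fell by 6.88 (adjusted edgeR p 0.0066). Spaca7 fell by 6.29 (adjusted edgeR p 0.011, 0.0617 without mouse 2), from 3.39 to 41.3 CPM to at most 1.04 CPM. The remaining one, Acsm3, a mitochondrial acyl-CoA synthetase, fell by 8.31 (adjusted edgeR p 0.0265). It was lost with mouse as a block (0.0795) and without mouse 2, 3 or 6 (0.0686 to 0.0966), and its 680 CPM in the kidney tumor of mouse 5 was far above the next kidney tumor at 27.9 CPM. Without mouse 5 its log2 fold change was -5.26 (adjusted edgeR p 0.0159), and those of Hsd3b6, Aoc1, Pklr and Spaca7 were -9.88, -8.50, -8.98 and -8.28. Hsd3b6 was at -8.46 without mouse 2 and -8.52 without mouse 6, and Pklr and Spaca7 were at -6.22 and -5.69 without mouse 3.

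Of a list of 34 genes of peroxisomes and fatty acid oxidation, all tested, 11 fell and 0 rose (median -0.81), and 15 fell with mouse as a block. The list also held Pmp22, which encodes a protein of peripheral myelin and was not called (log2 fold change 0.45, adjusted edgeR p 0.289). Cat, the peroxisomal catalase (chromosome 2, 103453849 to 103485160), was at 68.8, 52.3, 104 and 68.8 CPM in the retro-orbital tumors of mice 2, 3, 5 and 6 and at 280 to 586 CPM (median 498) in kidney tumors, and fell by 2.70 (SE 0.25, adjusted edgeR p 0.00116). Pex11a, which divides peroxisomes, fell by 2.47, Cpt2, which brings fatty acids into the mitochondrial matrix pathway, by 1.42 and Hsd17b4, a peroxisomal beta-oxidation enzyme, by 0.81 (adjusted edgeR p 0.00139, 0.00276 and 0.00139). No value of these 4 genes overlapped between the groups. Dao, the D-amino acid oxidase of the proximal tubule, fell by 4.26 (adjusted edgeR p 0.0388), a call that was lost when any mouse but mouse 5 was left out (0.0554 to 0.105), and its log2 fold change without mouse 5 was -6.23.

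Some transcription factors of craniofacial mesenchyme rose in retro-orbital tumors. Of 44 such factors, 29 passed the filter on low counts, of which 12 rose and 1 fell (median 1.13), and 7 rose with mouse as a block. The list summed to 512 to 859 CPM in retro-orbital and 189 to 538 CPM in kidney tumors. In the brain tumors of mice 1, 2 and 4 it summed to 1244, 362 and 441 CPM. Prrx1 (chromosome 1, 163245119 to 163313710), a homeobox gene of limb and face mesenchyme, was at 87.9, 82.2, 73.0 and 96.7 CPM in mice 2, 3, 5 and 6, compared to 2.74 to 24.0 CPM (median 8.19) in kidney tumors, and rose by 3.1 in log2 (SE 0.50, adjusted edgeR p 0.00378). Alx4 (chromosome 2, 93642384 to 93681339), which patterns the frontonasal skeleton, was at 22.1, 31.7, 17.4 and 30.9 CPM compared to 0.0276 to 5.12 CPM (median 0.106). It rose by 4.81 (SE 1.47, adjusted edgeR p 0.0469), was not called with mouse as a block (0.054), and was lost when any mouse but mouse 5 was left out (0.0651 to 0.146). Without mouse 5, whose kidney tumor held the 5.12 CPM, the log2 fold change was 8.47 (adjusted edgeR p 0.00018). Alx1 (chromosome 10, 102998707 to 103030215), needed for the midface and the eye region, was at 170, 152, 52.1 and 126 CPM compared to 0.385 to 50.9 CPM (median 1.28). Each retro-orbital tumor was above each kidney tumor, but both tumors of mouse 5 were at close to the same level, and the log2 fold change of 3.73 was not called (SE 1.34, adjusted edgeR p 0.0812). Without mouse 5 it was 7.12 (adjusted edgeR p 0.00018), and that of Prrx1 was 3.71.

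Further factors of this list rose as well. Msx1 rose by 3.20, Meox2 by 2.72 and Runx2, the factor of bone formation, by 1.35 (adjusted edgeR p 0.00432, 0.00249 and 0.0172). Osr2, a factor of palate and eyelid development, was at 91.0, 102, 84.5 and 160 CPM compared to 4.11 to 33.8 CPM (median 13.8) and rose by 2.83 (adjusted edgeR p 0.00484). Twist1 (chromosome 12, 33957671 to 33959829), a factor of neural crest mesenchyme, was at 3.72, 4.65, 4.74 and 7.13 CPM compared to 0.00988 to 1.07 CPM (median 0.124) and rose by 4.10 (adjusted edgeR p 0.0195), and Foxf2 rose by 5.08 (adjusted edgeR p 0.00992). The groups did not overlap for any of these 6 factors. With mouse as a block, Osr2 (0.0598), Twist1 (0.0829) and Foxf2 (0.0776) were not called. Leaving out mouse 3 ended the calls of Twist1 (0.0698), Foxf2 (0.0569) and Runx2 (0.0718), and leaving out mouse 2 that of Twist1 (0.0679). The log2 fold changes of Msx1, Twist1 and Foxf2 without mouse 5 were 3.88, 5.2 and 6.18, and that of Foxf2 without mouse 3 was 4.13.

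Sox9, a factor of cartilage and of injured or progenitor-like tubule cells, was the exception in that list. It was at 1.13, 2.60, 6.00 and 1.12 CPM in the retro-orbital tumors of mice 2, 3, 5 and 6, at 6.75 to 101 CPM (median 61.9) in kidney tumors and at 0.964 to 1.36 CPM in control kidney. It fell by 4.36 (SE 0.94, adjusted edgeR p 0.0119), with 0.078 under the mouse block and 0.0569 to 0.066 without mouse 2, 3 or 6, and by 5.27 without mouse 5. Kidney tumors were thus above both the control kidneys and the retro-orbital tumors.

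**Figure D5:**
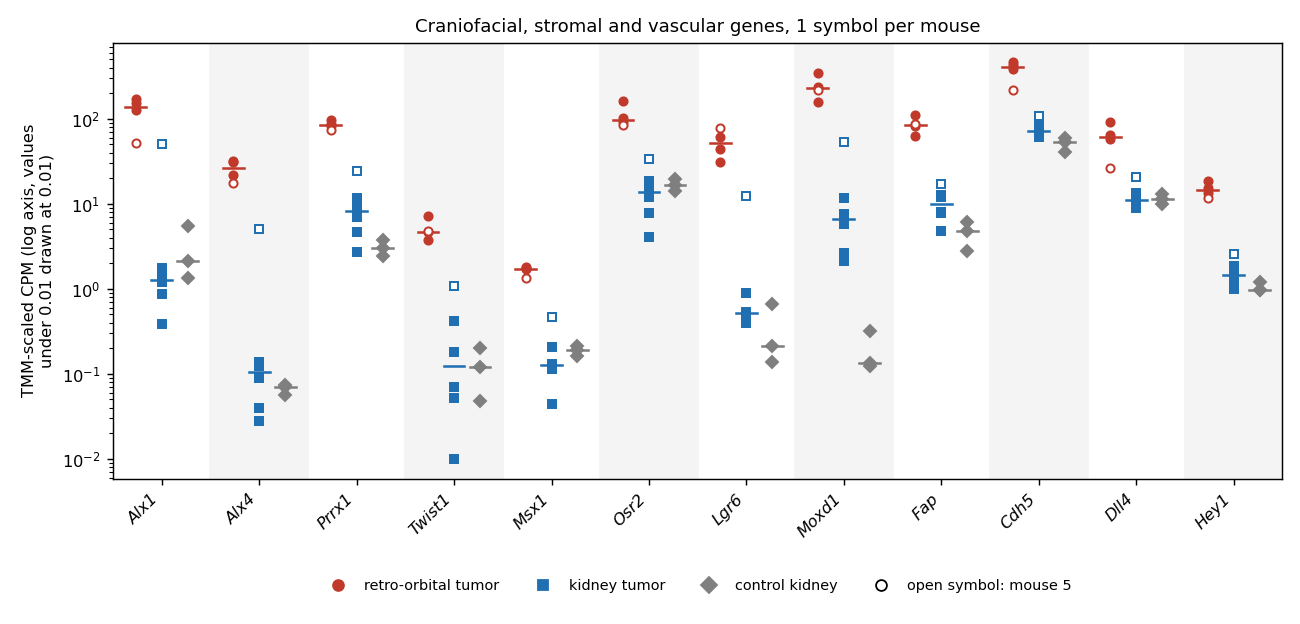
TMM-scaled CPM (log axis, values under 0.01 drawn at 0.01) of craniofacial, stromal and vascular genes, 1 symbol per mouse in retro-orbital tumors, kidney tumors and control kidney. Open symbols mark mouse 5. Retro-orbital tumors lie above kidney tumors for each gene, and for Alx1 the kidney tumor of mouse 5 (50.9 CPM) nearly reaches its retro-orbital tumor (52.1 CPM).

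Tac2, Oca2 and Scml4 led the 12 largest rises. Tac2, the precursor of neurokinin B (chromosome 10, 127724478 to 127731768), was at 4.93, 112, 180 and 459 CPM in mice 2, 3, 5 and 6, compared to 0.0593 to 1.37 CPM (median 0.272) in kidney tumors, and rose by 8.69 (SE 1.28, adjusted edgeR p 0.00253). Its levels differed widely among retro-orbital tumors. Nexmif, an X-linked gene of neurite growth (chromosome X, 104077434 to 104201185), was at 90, 364, 246 and 180 CPM compared to 4.41 to 26.2 CPM (median 10.5) and rose by 4.21 (SE 0.52, adjusted edgeR p 0.00153). Lgr6, a receptor for R-spondins that amplifies Wnt signals (chromosome 1, 134983301 to 135105276), was at 44.1, 31.3, 78.5 and 60.8 CPM compared to 0.393 to 12.2 CPM (median 0.518) and rose by 4.43 (SE 1.1, adjusted edgeR p 0.0213). Moxd1, a monooxygenase-like gene, rose by 4.11 (adjusted edgeR p 0.0111), at 159 to 346 CPM compared to 2.11 to 53.9 CPM (median 6.69). Scml4 and Oca2, the latter a melanosome transporter, rose by 6.02 and 6.20 (adjusted edgeR p 0.0019 and 0.00456). Leaving out mouse 5 moved the log2 fold change of Lgr6 to 6.41 (adjusted edgeR p 8.76e-05) and that of Moxd1 to 5.44. Tac2 was at 9.48 without mouse 4 and 7.53 without mouse 6, Oca2 at 4.79 without mouse 3 and 6.91 without mouse 4, and Scml4 at 4.96 without mouse 6.

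The remaining 6 of these 12 were Alx4, Gpr22, Dok5, Phyhip, Garem2 and Nkx6-1, the last a homeobox gene of motor neurons and beta cells. Gpr22, Dok5, Phyhip, Garem2 and Nkx6-1 rose by 3.87 to 4.68. Their levels were 18.4 to 78.2, 16.3 to 44.1, 18.2 to 46.2, 15.8 to 24.0 and 25.3 to 41.2 CPM, in that order, in retro-orbital tumors. Their medians over the 6 kidney tumor mice were 0.229 to 1.02 CPM, and the highest kidney tumor for each was that of mouse 5, at 9.59, 7.92, 7.75, 5.58 and 8.88 CPM. Without mouse 5 they rose by 6.95, 5.74, 5.58, 5.88 and 5.36. With mouse as a block, Gpr22 (0.0655), Dok5 (0.0613), Phyhip (0.0577) and Nkx6-1 (0.0506) were not called. Without mouse 4, Gpr22, Phyhip, Garem2 and Nkx6-1 were lost (0.0534 to 0.0694), and without mouse 1, Gpr22 (0.0506) and Phyhip (0.0572). Each of these 5 lost its call without mouse 2, 3 or 6 (adjusted edgeR p 0.0568 to 0.122), as did Lgr6 (0.0692 to 0.0807), and Moxd1 did so without mouse 3 (0.0504) or 6 (0.0607). Several of the 12 genes were also present in brain tumors of this mouse line. In the brain tumor of mouse 1, Moxd1 was at 2119 CPM, Nexmif at 149, Gpr22 at 140, Nkx6-1 at 41.6, Dok5 at 36.5, Phyhip at 25.7, Tac2 at 21.5, Alx4 at 15.9, Scml4 at 14.9, Garem2 at 13.5, Oca2 at 0.325 and Lgr6 at 0.162 CPM. In those of mice 2 and 4, Nexmif was at 120 and 6.09 CPM, Gpr22 at 43.3 and 2.46 CPM, and Moxd1 at 10.7 and 16.6 CPM. The 3 brain tumors thus differed widely in these genes. Levels of the other genes in the brain tumors of mice 2 and 4 are not given here.

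Targets of MiT/TFE factors were called about as often as all genes. Of 32 lysosomal and other targets, 3 rose and 2 fell (median -0.17), which is 15.6% compared to 17.7% of all genes tested. Of 22 subunits of the V-ATPase, the proton pump of the lysosome, 1 rose and 0 fell (median -0.29), which is 4.55%. With mouse as a block, 3 targets rose and 1 fell, and 0 V-ATPase subunits rose and 2 fell. Gpnmb, a lysosomal glycoprotein, was at 4158, 3934, 2968 and 4599 CPM in the retro-orbital tumors of mice 2, 3, 5 and 6 and at 2832 to 7188 CPM (median 4945) in kidney tumors, compared to 1.58 to 2.49 CPM in control kidney. It was not called between the sites (log2 fold change -0.35, SE 0.27, adjusted edgeR p 0.398). Gla, the lysosomal alpha-galactosidase, was at 260, 183, 206 and 252 CPM compared to 113 to 318 CPM (median 210), with a log2 fold change of 0.08 (SE 0.34, adjusted edgeR p 0.899). Rragb, a Rag GTPase that recruits mTORC1 to lysosomes (chromosome X, 153139981 to 153171943), was at 507, 515, 355 and 578 CPM compared to 136 to 350 CPM (median 213) and rose by 1.15 (SE 0.27, adjusted edgeR p 0.0168), and lost its call without mouse 3 (0.064) or 6 (0.0795). Both genes were far below these levels in control kidney, at 5.63 to 6.53 CPM for Gla and 6.20 to 7.17 CPM for Rragb.

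Of 26 of these targets with a RefSeq promoter, running from 250 bases before to 50 after the start, 7 held GTCACGTG or, on the other strand, CACGTGAC, the CLEAR element bound by MiT/TFE factors: Ctsa, Ctsd, Gla, Glb1, Lamp1, Mcoln1 and Rragb. The windows of Gla and Rragb are shown because they set a target that was not called beside one that rose, with 45 bases on both sides of the match, the match in capitals and each sequence on the strand of its gene (build GRCm38.p6).
Gla (chrX:134601149-134601246, minus strand, match 196 bases before the start): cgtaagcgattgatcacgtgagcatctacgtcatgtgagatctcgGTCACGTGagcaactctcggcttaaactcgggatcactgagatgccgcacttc
Rragb (chrX:153139877-153139974, plus strand, match 36 bases before the start): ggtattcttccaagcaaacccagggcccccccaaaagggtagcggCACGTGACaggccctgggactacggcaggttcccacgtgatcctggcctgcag

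These letters were in 689 of 27025 promoters (2.55%), in 50 of 1187 risen genes (4.21%), in 47 of 1529 fallen genes (3.07%) and in 446 of 10585 genes tested and not called (4.21%). A match is a description of the sequence and no evidence of binding.

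Some single targets and pigment cell genes differed. Ctsk, the cathepsin of osteoclasts and a marker of TFE3 tumors (chromosome 3, 95499256 to 95509362), was at 109, 134, 84.1 and 116 CPM in the retro-orbital tumors of mice 2, 3, 5 and 6 and at 5.69 to 29.3 CPM (median 23.1) in kidney tumors, and rose by 2.55 (SE 0.42, adjusted edgeR p 0.00415). Fnip1, a partner of folliculin, rose by 0.74 and the lysosomal membrane protein Lamp2 fell by 0.57 (adjusted edgeR p 0.0168 and 0.0225). Ctsz, another cathepsin, fell by 1.86 (adjusted edgeR p 0.0223, 0.105 with the block). Leaving out mouse 2 or 3 ended the calls of Fnip1 (0.0815 and 0.0586), Lamp2 (0.0825 and 0.12) and Ctsz (0.0883 and 0.11), as did leaving out mouse 6 for Ctsz (0.0997) and mouse 4, 5 or 6 for Lamp2 (0.0538 to 0.072). Of 13 melanosome and pigment cell genes, 2 rose and 1 fell (median 0.77), which is 23.1% called compared to 17.7% of all genes tested. With mouse as a block, 5 rose and 1 fell. Trpm1, a cation channel of melanocytes (chromosome 7, 64153835 to 64269775), was at 1317, 839, 1242 and 1110 CPM compared to 150 to 506 CPM (median 286) and rose by 1.85 (SE 0.36, adjusted edgeR p 0.00773). Pmel, which forms the melanosome fibrils, was at 858, 1136, 470 and 929 CPM compared to 3.31 to 280 CPM (median 50.7). Its groups did not overlap, yet its spread among kidney tumors was wide and the log2 fold change of 3.00 was not called (adjusted edgeR p 0.0611), while without mouse 5 it was 3.83 (0.0494). Rab38 fell by 2.29 (adjusted edgeR p 0.0385), which was lost when any mouse but mouse 5 was left out (0.0505 to 0.126).

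Most mitotic genes rose in retro-orbital tumors. Of 26 cell cycle genes, 21 rose and 0 fell (median 0.98), 16 rose with mouse as a block and 19 without mouse 5. Mki67, the proliferation marker Ki-67 (chromosome 7, 135689784 to 135716361), was at 760, 459, 600 and 629 CPM in mice 2, 3, 5 and 6, compared to 213 to 358 CPM (median 281) in kidney tumors and 35.8 to 53.1 CPM in control kidney. It rose by 1.12 (SE 0.17, adjusted edgeR p 0.0032). Top2a, which untangles DNA, rose by 1.08 and Kif11, a spindle motor, by 1.33 (adjusted edgeR p 0.00276 and 0.00175), and the groups did not overlap for any of the 3. Mcm2, a subunit of the replication helicase, was not called, at 31.1 to 35.7 compared to 16.6 to 38.9 CPM (log2 fold change 0.25, adjusted edgeR p 0.45).

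The summed level of 20 endothelial genes was 2356, 2290, 1566 and 2352 CPM in the retro-orbital tumors of mice 2, 3, 5 and 6 and 705 to 1199 CPM (median 886) in kidney tumors. Of these 20, 12 rose and 0 fell (median 1.1), and 7 rose with mouse as a block. Cdh5, the cadherin of endothelial junctions (chromosome 8, 104101625 to 104144511), was at 390, 460, 216 and 435 CPM compared to 61.4 to 108 CPM (median 71.7) and rose by 2.27 (SE 0.22, adjusted edgeR p 0.00116). Pecam1, another junction protein, rose by 1.46 (adjusted edgeR p 0.00139), and the clotting factor carrier Vwf by 2.81 (adjusted edgeR p 0.0256, 0.0889 with the block, 0.055 to 0.106 without mouse 2, 3, 4 or 6), and by 3.72 without mouse 5. Alveolar soft part sarcoma is known as a richly vascular tumor, and whether this bears on the genes here was not tested. Of 14 smooth muscle and pericyte genes, 5 rose and 0 fell (median 0.37), among them the pericyte genes Mcam and Abcc9, by 2.07 and 2.10 (adjusted edgeR p 0.00177 and 0.00701).

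Notch signaling between neighboring cells guides vessel sprouting, and 8 of 14 Notch genes rose with 0 fallen (median 0.88, 5 with mouse as a block). The endothelial ligand Dll4 (chromosome 2, 119325784 to 119335962) was at 58.5, 91.1, 26.7 and 64.5 CPM in mice 2, 3, 5 and 6, compared to 9.01 to 20.8 CPM (median 11.0), and rose by 2.27 (SE 0.33, adjusted edgeR p 0.00248, 0.0557 with the block). The receptor Notch1 rose by 0.88 (adjusted edgeR p 0.00715, 0.0557 with the block, 0.0506 without mouse 2). The target Hey1 (chromosome 3, 8663359 to 8667256) was at 13.4, 15.3, 11.7 and 18.7 CPM compared to 0.986 to 2.56 CPM (median 1.46) and rose by 3.21 (SE 0.28, adjusted edgeR p 0.000822), and the feedback gene Nrarp rose by 2.15 (adjusted edgeR p 0.00141). Ligand, receptor and targets were lowest in mouse 5 among the retro-orbital tumors, and still above every kidney tumor.

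Collagens changed in both directions. Of 28 collagens, 10 rose and 2 fell (median 0.58), and with mouse as a block 9 rose and 1 fell. Col11a1, a fibril collagen of cartilage and of tumor stroma (chromosome 3, 114030540 to 114220718), was at 163 to 247 CPM in the 4 tumors, compared to 7.78 to 51.0 CPM (median 32.6), and rose by 2.73 (SE 0.41, adjusted edgeR p 0.00275). Col6a2 rose by 1.58 (adjusted edgeR p 0.00309). Among the collagens of basement membrane, Col4a1 and Col4a2, found in all tissues, rose by 0.76 and 1.02 (adjusted edgeR p 0.0276 and 0.0178), and were lost without mouse 2 (0.0986 and 0.08) or mouse 6 (0.0827 and 0.0571). In contrast, Col4a5 (chromosome X, 141475385 to 141689234), a chain of the mature kidney basement membrane, was at 14.1, 16.3, 24.7 and 14.1 CPM compared to 55.2 to 98.6 CPM (median 65.6) and fell by 2.05 (SE 0.24, adjusted edgeR p 0.00141). Its neighbor Col4a6 fell by 3.26 (adjusted edgeR p 0.0215, 0.0749 with the block, 0.0854 to 0.0988 without mouse 2, 3 or 6). Its log2 fold change was -4.50 without mouse 5 and -2.53 without mouse 3.

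Enzymes of matrix turnover and fibroblast genes rose in part. Of 28 proteases, inhibitors and lysyl oxidases, 7 rose and 3 fell (median 0.65), and with mouse as a block 8 rose and 1 fell. Fap, a protease of activated fibroblasts (chromosome 2, 62500943 to 62574075), was at 83.1, 63.0, 85.9 and 111 CPM in mice 2, 3, 5 and 6, compared to 4.79 to 17.1 CPM (median 9.96), and rose by 3.04 (SE 0.32, adjusted edgeR p 0.00139). The membrane metalloproteases Mmp14 and Mmp16 rose by 1.97 and 3.66, and the inhibitor Timp2 by 1.75 (adjusted edgeR p 0.00276, 0.00684 and 0.00475). Plau, the urokinase, which is made by kidney tubules, fell by 2.18 and the lysyl oxidase Loxl4 by 3.33 (adjusted edgeR p 0.00483 and 0.00901), the latter with 0.0784 under the block. Leaving out mouse 5 moved Mmp16 to 4.74 and Loxl4 to -3.98 in log2, and Loxl4 was at -2.70 without mouse 6. Of 12 fibroblast markers, 5 rose and 0 fell (median 1.34), and their sum was 3646, 2225, 3768 and 2062 CPM compared to 943 to 2086 CPM in kidney tumors.

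Receptor tyrosine kinases moved in both directions. Of 30 tested, 6 rose and 7 fell (median -0.40, which was 0.07 with limma-voom), and with mouse as a block 3 rose and 6 fell. Met, the receptor of hepatocyte growth factor (chromosome 6, 17463800 to 17573980), was at 33.9, 28.2, 63.8 and 43.3 CPM in mice 2, 3, 5 and 6, compared to 244 to 381 CPM (median 341) in kidney tumors and 418 to 448 CPM in control kidney, and fell by 2.95 (SE 0.25, adjusted edgeR p 0.000801). Erbb4 and Fgfr4 fell by 4.42 and 4.81 and Igf1r, a receptor for insulin-like growth factors, by 2 (adjusted edgeR p 0.0089, 0.00501 and 0.00276), and without mouse 5 Erbb4 and Fgfr4 fell by 5.52 and 5.96. Egfr fell by 1.52 (adjusted edgeR p 0.0306, 0.0645 with the block). The receptor Ret (chromosome 6, 118151745 to 118197718) was at 291, 264, 231 and 344 CPM compared to 30.1 to 166 CPM (median 47.5) and 0.793 to 1.03 CPM in control kidney, and rose by 1.99 (SE 0.47, adjusted edgeR p 0.017). Ret was thus present in tumors of both sites and near 1 CPM in control kidney. Pdgfrb, of pericytes and fibroblasts, rose by 1.38, and the collagen receptor Ddr2 by 2.12 (adjusted edgeR p 0.00203 and 0.0199, the latter 0.058 with the block). Leaving out mouse 2 or 3 ended the calls of Ret (0.0659 and 0.0655), Egfr (0.0832 and 0.0873) and Ddr2 (0.0862 and 0.0629), leaving out mouse 6 those of Ret (0.0852) and Egfr (0.114), leaving out mouse 4 that of Egfr (0.0513), and leaving out mouse 3 that of Erbb4 (0.0509).

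Secreted signals and their feedback genes were divided as well. Of 26 Wnt receptors and feedback genes, 5 rose and 1 fell (median -0.05, which was 0.07 with upper quartile factors). This is 23.1% called compared to 17.7% of all genes tested. Of the paired ubiquitin ligases that remove Wnt receptors, Rnf43 rose by 1.64 and Znrf3 fell by 1.01 (adjusted edgeR p 0.00222 and 0.00352). Rnf43 was at 19.2, 22.8, 19.5 and 21.2 CPM compared to 4.01 to 10.5 CPM, and Znrf3 at 9.01, 8.74, 10.1 and 7.04 CPM compared to 14.6 to 21.6 CPM. The secreted Dkk3 rose by 2.41 (adjusted edgeR p 0.00139). Of 26 ligands and inhibitors of the TGF-beta family, 9 rose and 3 fell (median 0.30), and 4 and 2 with mouse as a block. Bmp7, a factor of nephron formation, was at 1.66, 0.908, 3.73 and 0.337 CPM compared to 13.9 to 50 CPM (median 32.0) and fell by 4.19 (adjusted edgeR p 0.00466, 0.0576 with the block). The stress-induced Gdf15 fell by 3.62 (adjusted edgeR p 0.0275), and was lost with the block (0.0809) and without mouse 2, 3 or 6 (0.0997 to 0.12). The log2 fold changes of Bmp7 and Gdf15 were -5.04 and -5.48 without mouse 5. Gdf6, a factor of joints and the eye, and Inhbb, a subunit of activin B, rose by 3.13 and 2.11 (adjusted edgeR p 0.00618 and 0.00589).

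Of 26 genes of glycolysis and of the response to hypoxia, 3 rose and 4 fell (median -0.40), which is 26.9% called compared to 17.7% of all genes tested, and with mouse as a block 1 rose and 7 fell. The phosphofructokinase Pfkl was at 35.6, 19.5, 23.8 and 19.7 CPM in mice 2, 3, 5 and 6, compared to 37.3 to 183 CPM (median 121), and fell by 2.26 (adjusted edgeR p 0.00943). Ldha, lactate dehydrogenase A, fell by 1.28 and Ndrg1, a hypoxia-induced gene, by 2.77 (adjusted edgeR p 0.00325 and 0.0144). Epas1, which encodes HIF-2 alpha and is high in endothelium, rose by 1.02, and the neuronal enolase Eno2 by 1.25 (adjusted edgeR p 0.0098 and 0.00821). The call of Epas1 was lost with the block (0.0626) and without mouse 2 (0.0571) or 3 (0.066), and those of Pfkl and Ndrg1 without mouse 3 (0.058 and 0.0523) or 6 (0.0558 and 0.0582).

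Markers of other cells near the orbit or in blood were examined beside these results. Of 13 Harderian and lacrimal gland genes, 5 passed the filter and 2 rose (median 4.07, 1 with mouse as a block), but without mouse 5 none rose and 1 fell. The odorant-binding protein gene Obp1a was at 0.0404, 0.167, 979 and 0.209 CPM in the retro-orbital tumors of mice 2, 3, 5 and 6, and its adjusted edgeR p of 0.0166 became 0.558 with mouse as a block and 0.384 without mouse 5. Aqp5, a water channel of glands, was called with mouse 5 (adjusted edgeR p 0.0228) and not without mouse 2, 3, 5 or 6 (0.0512 to 0.0767). Of 8 neutrophil genes, 5 rose (median 1.88, 1 with mouse as a block), and the list summed to 40.6, 42.4, 290 and 131 CPM compared to 12.3 to 33.0 CPM. Ltf, lactoferrin, which glands also secrete, was at 240 CPM in mouse 5 and at most 1.3 CPM in the other retro-orbital tumors (adjusted edgeR p 0.0192, 0.2 with the block, 0.265 without mouse 5). Cxcr2, the chemokine receptor of neutrophils, was at 4.81, 4.08, 4.02 and 15.6 CPM compared to 0.316 to 2.19 CPM and rose by 2.76 (adjusted edgeR p 0.0141, 0.114 with the block, 0.051 to 0.0592 without mouse 2, 3 or 6). Without mouse 5 it rose by 3.37, and without mouse 6 its log2 fold change was 1.84. Csf3r, the receptor of the granulocyte growth factor, rose by 1.65 (adjusted edgeR p 0.0256, 0.0784 to 0.0848 without mouse 2, 3 or 6).

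The remaining lists had at most 5 called genes each. Of 7 retina and eye genes that passed the filter out of 14, 1 rose and 1 fell (median -0.09, with 0 and 1 under the mouse block). The list summed to 12.2 to 56.6 CPM in retro-orbital and 112 to 269 CPM in kidney tumors. Control kidneys had 102 to 142 CPM, so this sum does not mark eye tissue. No gene was called among 11 skeletal muscle (median -2.46), 15 macrophage (0.08), 7 blood (-1.04), 14 neuron and glia (-0.70) or 8 adipocyte (-6.26) genes, while the block called 1 neuron and glia gene lower and leaving out mouse 5 called 1 macrophage and 1 neuron and glia gene lower. Skeletal muscle genes summed to 200 to 307 CPM in retro-orbital and 20.5 to 326 CPM in kidney tumors, and adipocyte genes to at most 435 CPM in retro-orbital and 269 to 1644 CPM in kidney tumors. The 1644 CPM came from the kidney tumor of mouse 2, and the other kidney tumors had at most 493 CPM of adipocyte genes. Within mice, the median log2 difference of the adipocyte genes was -7.08 in mouse 2 and -0.45, -0.18 and -0.21 in mice 3, 5 and 6. Of 16 lymphocyte genes Cd4, the helper T cell coreceptor, rose by 2.05 (list median 0.42, adjusted edgeR p 0.0278, 0.056 to 0.114 without mouse 2, 3, 4 or 6). Of 23 genes of antigen presentation and interferon response, 3 rose and 0 fell (median 0.15, 13% called), and 1 rose with mouse as a block. Of 9 Schwann cell and nerve genes, 2 rose (median 0.72, 22.2% called), and of 10 podocyte genes, 2 fell (median -0.36, 20% called). The share over all genes tested was 17.7%. Of 10 bone and cartilage genes, 4 rose and 1 fell (median 1.44), none of them with mouse as a block.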

How the data were processed

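RNA from fixed, paraffin-embedded mouse tissue had been made into stranded total RNA libraries, per the labels. The table deposited by the authors holds unnormalized counts, 1 value per gene and library. The submitters' processing notes name STAR 2.5.2a, Bowtie2, FastQC and MultiQC and the genome build GRCm38 (mm10). The counter and annotation are not given in the sources used here, and how reads shared by similar genes were counted is not known. Symbols are from a table of Ensembl gene names and coordinates from GENCODE M21, which may not be the annotation the authors used. Each was matched by Ensembl ID without version for 53274 of 53379 genes. Across the 15 libraries, 79.495% to 82.391% of the counts from 1 to 20 were even, as would arise if both mates of a read pair were counted, so halved counts were an alternative.

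A second table, of fetal kidneys, was not used here. Libraries of a mouse and tissue were summed. They were no duplicates of each other. The 4 retro-orbital and 6 kidney tumor sums were fitted in R 4.3.3 by edgeR (version 4.0.16), which took TMM factors, filtered low counts with filterByExpr and ran the quasi-likelihood F-test without covariates. Calls had an adjusted p (Benjamini-Hochberg) under 0.05. The standard error (SE) was derived from the log2 fold change and its F statistic. Mice are the replicates, and the p-values measure the spread between them. Tumors of the same mouse pair the samples: across genes, the residuals of both tumors about their group means had correlations of 0.137, 0.229, 0.208 and 0.259 in mice 2, 3, 5 and 6. The retro-orbital tumors of mice 3 and 5 correlated more highly with the kidney tumor of another mouse (0.247 and 0.402), so the pairing rests on the labels. The fit with mouse as a block was therefore an alternative, and its adjusted p is printed where it changed a call. Reads carried no molecular identifiers, so bounds set at 3 counts reflect counting error alone.

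The members of the comparison and the 35 gene lists were chosen with earlier results of these data known. Genes of the lists were open to naming. The 12 genes that rose most and the 12 that fell most, list members included, are also named, taken from called genes whose average log2 CPM was 3 or more, with groups that did not overlap and the same direction in the 4 mice with both tumors, passing over predicted genes. Tfe3, Aspscr1 and Xist were added as checks of the labels. Promoters are from RefSeq (GRCm38.p6), matched by symbol for 13301 of 22133 tested symbols. Some genes are not reported here. Sex was read from Y-linked transcripts (over 50 CPM called male).

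Alternatives were RLE and upper quartile factors, DESeq2 1.42.0, no filter, a filter of at least 1 CPM in 4 sums, mouse as a fixed block, a limma-voom fit (version 3.58.1) to single libraries that treats mouse as random, the 4 mice with both tumors only, every library as its own sample, 1 kidney tumor library per mouse, a joint fit of all groups, sex as a covariate, a test against a 1.5-fold change, halved counts, and fits without each mouse or each retro-orbital tumor. The code was tested on simulated data.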

Additional observations from a re-analysis of the deposited data

Results flagged for a closer look

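A single mouse lay far from the rest in 71 of 332 sets of levels examined per group, of which 12 were among 70 sets of list sums. Chance flags about 1 in 20 such sets where values are normally distributed, and the rate for these CPM values, which are skewed, was not measured. Most of these values came from the retro-orbital or the kidney tumor of mouse 5. Their cause was not tested.

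Renal transcription factors in the retro-orbital tumor of mouse 5 were above those of the 3 other retro-orbital tumors: Hnf4a at 14.9 CPM, Tfcp2l1 at 27.1, Nr1h4 at 7.79, Pax8 at 3.3, Emx2 at 3.04, Pax2 at 1.76 and Lhx1 at 0.62 CPM. The list of these factors summed to 151 CPM there. Hox genes were high in the same library, with Hoxa3 at 2.28 CPM, Hoxa10 at 1.68, Hoxc10 at 0.952, Hoxa11 at 0.575, Hoxb9 at 0.557 and Hoxc11 at 0.162 CPM, and a sum of 23.4 CPM. Segment and epithelial genes were high as well: Lrp2 was at 672 CPM, Umod at 185, Cubn at 181, Slc12a1 at 175, Slc34a1 at 89.6, Cdh16 at 34.3, Slc5a12 at 34, Cdh1 at 31, Epcam at 23.2 and Cldn2 at 5.42 CPM, and the proximal tubule list summed to 2596 CPM. Ugt and Cyp enzymes summed to 578 CPM, with Ugt2b34 at 21.9 CPM, Ugt2b35 at 11.7, Ugt1a1 at 1.79 and Ugt2b37 at 0.701 CPM. The same held for Ndrg1 at 88.8 CPM, Dao at 10.6, Erbb4 at 7.8, Col4a6 at 3.66, Pklr at 3.59, Gdf15 at 3.25, Aoc1 at 2.3, Fgfr4 at 1.89 and Rab38 at 1.52 CPM.

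Gland transcripts in that library were Obp1a at 979 CPM, Ltf at 240 CPM and Aqp5 at 2.93 CPM, and the Harderian and lacrimal gland list summed to 1870 CPM. Its endothelial genes summed to 1566 CPM, below the other retro-orbital tumors. In the retro-orbital tumor of mouse 6, Cxcr2 was at 15.6 CPM and skeletal muscle genes summed to 307 CPM.

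In the kidney tumor of mouse 5, genes otherwise high in retro-orbital tumors stood above the other kidney tumors: Moxd1 was at 53.9 CPM, Alx1 at 50.9, Dll4 at 20.8, Lgr6 at 12.2, Gpr22 at 9.59, Mmp16 at 9.42, Nkx6-1 at 8.88, Dok5 at 7.92, Phyhip at 7.75, Garem2 at 5.58 and Alx4 at 5.12 CPM, and the craniofacial list summed to 538 CPM. Slc7a13 at 791 CPM, Acsm3 at 680 CPM, Ugt2b37 at 129 CPM and Aspscr1 at 41.6 CPM were also highest there, and blood genes summed to 1162 CPM. Among the other kidney tumors, Slc5a12 was at 397 CPM and Lhx1 at 10.1 CPM in mouse 4, where neuron and glia genes summed to 242 CPM. Mouse 2 had Meox2 at 1.49 CPM and adipocyte genes at a sum of 1644 CPM, and mouse 1 had Egfr at 125 CPM and lymphocyte genes at a sum of 379 CPM.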

How the results depend on the processing

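No gene that was called and named changed direction under any of 24 alternatives, and 50 of the 112 kept their call under all of them. Of those 112, the replicate block (mouse) lost 31, and fits without a mouse or a retro-orbital tumor lost 55 in at least 1 case, from 4 without mouse 5 to 45 without mouse 3. The block gained Hnf4a, Lrp2, Cubn, Slc5a12 and Cdh1. Among the named genes it changed no call beyond those given with the results. The 3919 called genes became 2707 with the block, 5996 with DESeq2, 2473 with 1 kidney tumor library per mouse, 1540 against a 1.5-fold change, and 1676 (without mouse 3) to 4051 (without mouse 1) when a mouse or tumor was left out, with 1795 without mouse 2, 1832 without mouse 6, and 2141, 2385 and 2377 without the retro-orbital tumor of mouse 2, 3 or 6. The 1828 rises became 1119 with the block, 3394 with limma-voom, 1213 with 1 kidney tumor library per mouse, 754 against a 1.5-fold change, and 847 to 2052 with a mouse or tumor left out. The 2091 falls became 3288 with DESeq2, 1260 with 1 kidney tumor library per mouse, 786 against a 1.5-fold change, and 829 to 1999 with a mouse or tumor left out. The share of rises among called genes was 46.64%, and 57.83% with upper quartile factors, under which the all-gene median shifted by 0.1121 (log2), and 58.88% with limma-voom. Of genes not called, the log2 fold change of Gla turned to -0.13 with the block and -0.15 in the 4 mice with both tumors, and that of Aspscr1 to -0.02 without mouse 2, -0.09 without mouse 3 and -0.04 without the retro-orbital tumor of mouse 3, while leaving out mouse 5 raised it to 0.31. Of 840 list medians, 65 moved by more than the spread between mice. Fewer samples enter the fits that leave out a mouse, and otherwise the cause was not tested. With 4 retro-orbital tumors, of which 1 stood apart, a gene that was not called may still differ.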
